A study of Homo sapiens with 15 samples.

Results

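Long noncoding RNAs (lncRNAs) are transcripts of the length of mRNAs that carry no long reading frame, and 8 of them were followed through a cell-free condensation experiment. They were taken by gene symbol from a list that sorts them by where they are found in cells, as 6 nuclear-retained RNAs (MALAT1, NEAT1, KCNQ1OT1, MIAT, TUG1 and PVT1) and 2 cytoplasmic RNAs (NORAD and DANCR). These are 8 of the 57500 genes counted, and all 8 were among the 16612 genes tested, for which each of the 5 conditions had 10 counts or more in at least 2 of its replicates. Cytosolic extract of U2OS, a human osteosarcoma cell line that the labels describe as wild type, was incubated for 2 h at 37 °C as an in vitro translation reaction. The reactions were left untreated (mock) or received 250 nM dsRNA, 2 µg/ml silvestrol or 1% PEG, and the condensates were then pelleted. The 3 input libraries came from extract that was not pelleted and for which no incubation is given. Comparisons of pellets with input therefore cannot separate pelleting from the 2 h reaction. The 4 condensate groups and the input share the same cell line, and whether same-numbered libraries share an extract is not given. Poly(A)-selected RNA was sequenced from 3 biological replicates of each group, 15 libraries in all.

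Silvestrol blocks the helicase eIF4A and with it translation initiation, dsRNA activates the kinase PKR and thereby the integrated stress response, and PEG is an inert polymer that crowds macromolecules. In stressed cells, mRNAs released from ribosomes gather in stress granules, cytoplasmic condensates built around the protein G3BP1. LncRNAs differ in where they reside. Some stay in the nucleus and organise it, others are exported and bind cytoplasmic proteins. Nuclei and whole cells were not analysed here, so the split of each RNA between nucleus and cytoplasm could not be checked against these counts.

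MALAT1 is an abundant RNA of nuclear speckles, and NEAT1 is the scaffold of paraspeckles, nuclear bodies that its long isoform nucleates. KCNQ1OT1 is an imprinted antisense RNA that silences neighbouring genes in cis on the paternal chromosome. MIAT and TUG1 are mostly nuclear RNAs, MIAT in bodies of its own, and PVT1 is transcribed beside the MYC oncogene and hosts microRNAs. NORAD is a cytoplasmic RNA that sequesters PUMILIO proteins and thereby guards genome stability, and DANCR is a short RNA named for its role against differentiation that hosts a small nucleolar RNA.

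NORAD is known through its PUMILIO sites, and a few are shown for that reason. The motif searched was TGTANATA (reverse complement TATNTACA), in the longest transcript of each gene in GENCODE release 29 on GRCh38, with 5′ to 3′ DNA letters in lower case and the motif in capitals. Sites 1, 3, 5 and 15 along NORAD lie on the minus strand at chr20:36050182-36050211, chr20:36049702-36049731, chr20:36049492-36049521 and chr20:36046344-36046373.
NORAD site 1: tggaaggcctgTGTATATAatatgaaaaag
NORAD site 3: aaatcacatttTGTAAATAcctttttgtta
NORAD site 5: tgtgtatatagTGTACATAaaggacagacg
NORAD site 15: attagcctattTGTAAATAcctttgttata
NORAD, a single exon of 5339 nt, held 15 such sites and 1 match to the reverse complement. Among the 3755 tested genes whose transcripts are at least as long, NORAD included, 38.4% held a site in their first 5339 bases and 0.0533% held as many as 15. The rest of longer transcripts was not searched for this share. The transcripts of MALAT1, MIAT, PVT1 and DANCR held 0 sites, TUG1 held 2, NEAT1 held 6 in 22743 nt and KCNQ1OT1 held 9 in 91667 nt. A match describes the letters only and is not a measured binding site.

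MALAT1 and NEAT1 share a 3′ end that bears on a poly(A)-selected library. MALAT1 and the long isoform of NEAT1 are cut by RNase P rather than cleaved and polyadenylated, and U-rich and A-rich tracts pair there as a triple helix in place of a poly(A) tail. Capitals mark AAAAGCAAAA (A-rich), the last letters of the longest NEAT1 transcript, and their reverse complement TTTTGCTTTT (U-rich), on the plus strand of GRCh38 at chr11:65506051-65506080 and chr11:65506087-65506116 for MALAT1 and at chr11:65445470-65445499 and chr11:65445511-65445540 for NEAT1.
MALAT1 U-rich: acacgtattgttttctcaggTTTTGCTTTT
MALAT1 A-rich: ttttctagcttaaaaaaaaaAAAAGCAAAA
NEAT1 U-rich: agcccatggccgcactcaggTTTTGCTTTT
NEAT1 A-rich: ctgtgaaagagtgagcaggaAAAAGCAAAA
In MALAT1 the annotated transcript of 8708 nt runs on past these letters, which start at position 8346, and it held the A-rich letters at 2 places, of which the last is shown. Of tested genes with transcripts at least as long as that of MALAT1 (998 genes, MALAT1 included), 9.02% held the A-rich and 9.72% the U-rich letters in the same length from their start. At the length of NEAT1 (20 genes, NEAT1 included) the shares were 20% and 35%. Of the other members, KCNQ1OT1 held the A-rich letters at 2 places and TUG1 at 1, and both held the U-rich letters at 0. How far the genome-encoded A-rich tracts were captured by poly(A) selection cannot be read from counts per gene, and the polyadenylated short isoform of NEAT1 shares all its sequence with the long one, so the counts do not separate them.

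Total counts per library ranged from 15341973 to 46939993, with a median of 35584710, and the PEG group was the shallowest, at 15341973 to 25675182. The 8 lncRNAs made up between 0.105% and 0.301% of all counts in a library. Values below are normalised counts (CPM, counts scaled to a common library size by edgeR's TMM method), and because they are shares of a library, more of an RNA in a pellet and less of the other RNAs cannot be told apart. The label of the cell line was checked against its markers. RUNX2, COL1A1, SPARC and VIM passed the count filter while COL1A2 had at most 10 counts in any library. The hepatocyte markers ALB, APOA1, AFP and TTR had at most 2, 21, 7 and 1 counts and the blood markers PTPRC, CD3E and HBB at most 19, 1 and 4, and none of these passed the filter. Of the epithelial markers CDH1 had at most 50 counts, whereas EPCAM passed with 166 to 498 counts (mean 9.37 CPM) and was 1.23 higher in PEG than in mock pellets on the log2 scale (adjusted p = 0.000548, edgeR). Of the U2OS markers VIM (1.46) and SPARC (0.64) were also called higher there, COL1A1 (−1.83) was called lower and RUNX2 (−0.11) did not pass. Of all genes tested, 31.3% were called higher in that comparison. The part of EPCAM in the results below was not tested.

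Replicate 1 stood apart from replicates 2 and 3 in several of these lncRNAs. MIAT was at 51.0 CPM in replicate 1 of the input and at 203 and 175 CPM in replicates 2 and 3. In mock pellets it was at 71.7 CPM against 277 and 223 CPM, with dsRNA at 71.3 against 304 and 255 CPM, and with silvestrol at 70.9 against 281 and 223 CPM. The mean of replicates 2 and 3 was thus 3.49 to 3.92 times that of replicate 1 in these 4 groups, whereas in PEG pellets the 3 libraries were at 78.4, 74.1 and 71.2 CPM. Among all genes tested, the log2 ratio of replicates 2 and 3 to replicate 1 for MIAT lay above the 99th percentile in input (99.1), mock (99.3), dsRNA (99.6) and silvestrol (99.4), and at the percentile of 35.2 in PEG. NEAT1 followed with ratios of 1.54 to 1.84 in those 4 groups and 0.631 in PEG, and DANCR went the other way with 0.705 to 0.843 in the same 4 groups. Libraries of the same replicate number deviated together across groups, though only weakly where PEG libraries were concerned. Replicates 2 and 3 also deviated alike, so that mainly replicate 1 was set apart. Calls of the 8 members that turn on this are therefore also given with replicates paired by number (the replicate block).

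**Figure D1:**
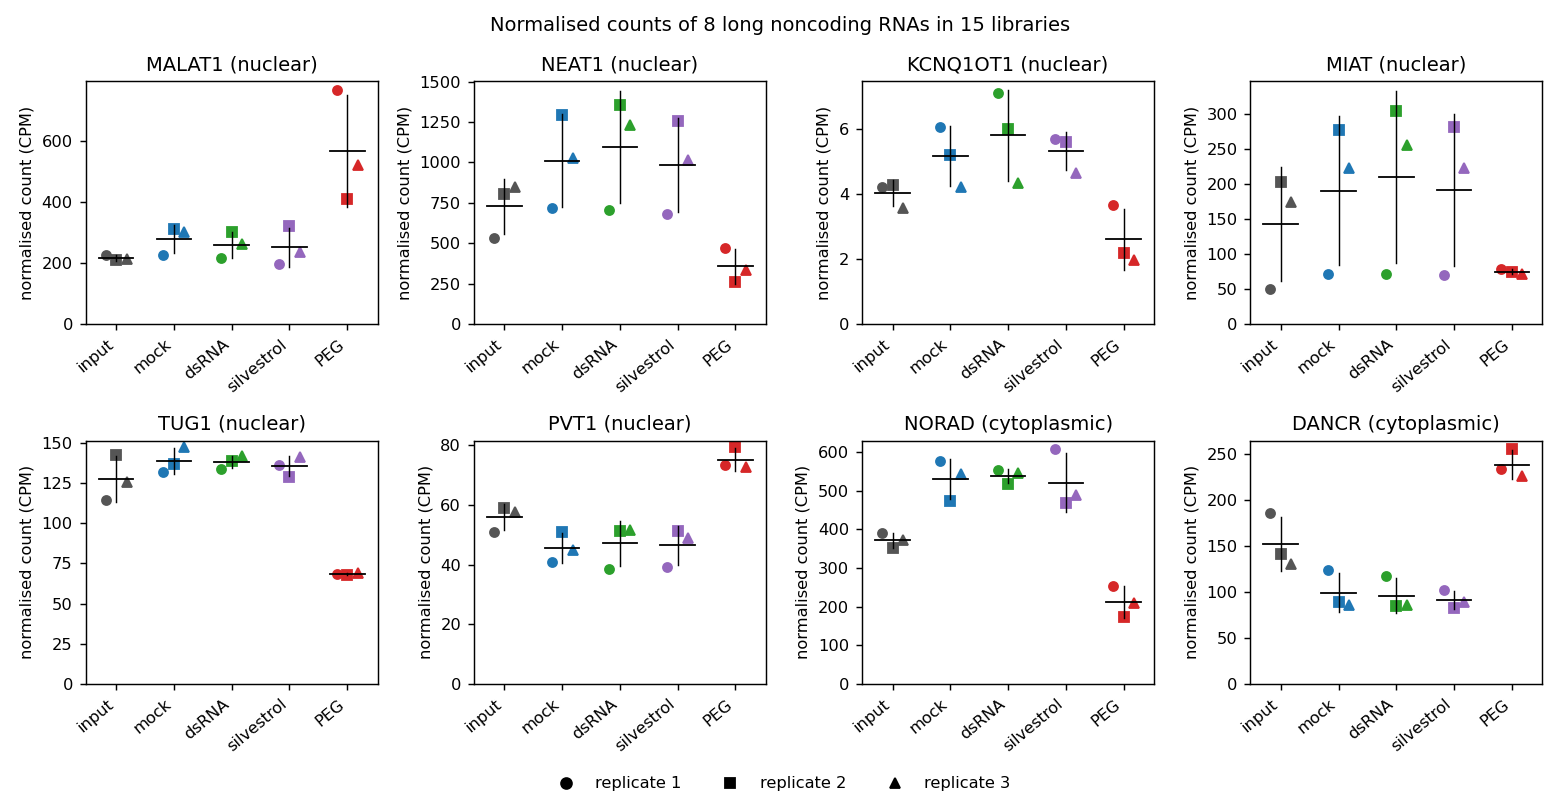
Normalised counts (CPM, vertical axis) of the 8 lncRNAs in input and in mock, dsRNA, silvestrol and PEG condensates, 1 panel per RNA. Circles, squares and triangles are replicates 1, 2 and 3, the horizontal line is the mean of 3 libraries and the vertical line is ± 1 SD. NORAD and MALAT1 part in the PEG group, where NORAD falls to a mean of 212 CPM and MALAT1 reaches 568 CPM, and MIAT in replicate 1 stays between 51.0 and 78.4 CPM throughout.

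Counted per kilobase of exon, NORAD and DANCR were the most abundant of the 8 RNAs in the input, at 69.5 ± 3.60 and 66.6 ± 12.8 CPM per kb (SD, n = 3), and their libraries overlapped. Exon length sums all annotated exons of a gene, and the order depends on that choice. The longest single transcript in GENCODE release 29 has 904 nt for DANCR (2285 nt of exon) and 1699 nt for PVT1 (5493 nt of exon). NEAT1 (32.1 ± 7.43 CPM per kb) and MALAT1 (24.8 ± 1.10 CPM per kb) came next and also overlapped each other. TUG1 stood at 18.8, MIAT at 12.4 ± 7.03 and PVT1 at 10.2 ± 0.778 CPM per kb, where MIAT overlapped both of its neighbours. KCNQ1OT1, whose exon spans 91667 nt, was the rarest at 0.0439 ± 0.00432 CPM per kb, with 94 to 207 counts in an input library.

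The order of levels per kb was alike in mock, dsRNA and silvestrol pellets and differed from that in PEG pellets. With exon length as the divisor, as in all values per kb here, NORAD led alone in mock condensates at 99.4 ± 9.73 CPM per kb. NEAT1 (44.4 ± 12.7 CPM per kb) and DANCR (43.4 ± 9.24 CPM per kb) overlapped below it. In PEG condensates DANCR led alone at 104 ± 6.81 CPM per kb, followed by MALAT1 at 64.9 ± 20.9 and NORAD at 39.7 ± 7.61 CPM per kb, whose libraries overlapped. PVT1 (13.7 ± 0.682 CPM per kb) overlapped NEAT1 (15.7 ± 4.73 CPM per kb) there and stood above TUG1 (10.1 CPM per kb) and MIAT (6.48 ± 0.312 CPM per kb), without overlap with either.

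The first comparison asked which of these RNAs were enriched or depleted in mock, dsRNA and silvestrol condensates over the input extract. NORAD was enriched in all 3 kinds of pellet, 1.43- to 1.49-fold, and DANCR was depleted with dsRNA and with silvestrol. The 2 cytoplasmic RNAs thus went opposite ways. Of the 6 nuclear RNAs none passed in any of these 3 comparisons, but with replicates paired NEAT1, KCNQ1OT1 and MIAT were enriched in all 3 kinds of pellet, MALAT1 was enriched in mock and PVT1 was depleted in mock and with silvestrol. The 3 comparisons use the same 3 input libraries, so their results are not independent of each other.

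NORAD was at 389.6, 351 and 373 CPM in the 3 input libraries. It reached 576, 474 and 543 CPM in mock pellets, 553, 517 and 546 CPM with dsRNA and 608, 467 and 489 CPM with silvestrol. Each of these 9 pellets lay above each input library. The log2 fold change over input was 0.55 ± 0.12 (SE, 1.46-fold) for mock, 0.58 ± 0.12 (1.49-fold) for dsRNA and 0.52 ± 0.14 (1.43-fold) for silvestrol, with adjusted p of 0.0137, 0.00675 and 0.0236 (edgeR's quasi-likelihood test, Benjamini-Hochberg over all genes tested). With a single library left out, the dsRNA value stayed past the threshold in 6 of 6 fits. The calls for mock and silvestrol were each lost in 3 of 6 fits, with adjusted p of 0.0685 (without input replicate 2), 0.0603 (without input replicate 3) and 0.0641 (without mock replicate 3) for mock, and of 0.108, 0.0908 and 0.0562 for silvestrol without input replicate 2, input replicate 3 and silvestrol replicate 3.

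DANCR was at 185, 141 and 130.1 CPM in input. It was at 123, 88.6 and 85.4 CPM in mock pellets, at 117, 85.1 and 85.2 CPM with dsRNA and at 102, 82.8 and 88.9 CPM with silvestrol. Each of these pellets was below each input library, and replicate 1 was the highest of its group every time. The log2 fold change fell by 0.63 ± 0.19 (SE, 1.54-fold lower) with dsRNA, adjusted p = 0.0307, and by 0.71 ± 0.16 (1.63-fold lower) with silvestrol, adjusted p = 0.0124 (edgeR). The mock value was −0.58 ± 0.19 with adjusted p = 0.0534, which did not pass, and the same fit with the replicate block gave −0.59 ± 0.08 and adjusted p = 2.95e-06, the lowest of all alternatives, which reached 0.174 at the other end. DESeq2 also called it (adjusted p = 0.0223). The dsRNA call was lost in 3 of 6 fits with a library left out, without input replicate 1 (adjusted p = 0.0507), dsRNA replicate 2 (0.107) or dsRNA replicate 3 (0.11). The silvestrol call was lost without silvestrol replicate 2 (0.0541) or 3 (0.0502).

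NEAT1, the paraspeckle scaffold, had the highest CPM of the 8 RNAs in input, at 536, 807 and 847 CPM. It was at 717, 1294 and 1026 CPM in mock pellets, at 704, 1355 and 1234 CPM with dsRNA and at 683, 1258 and 1015 CPM with silvestrol. Every pellet exceeded the input library of its own replicate number, but replicate 1 of each pellet lay below input replicates 2 and 3, so the groups overlapped. The log2 fold changes of 0.51 ± 0.25, 0.63 ± 0.27 and 0.46 ± 0.26 had adjusted p of 0.16, 0.0972 and 0.193. With the replicate block they were 0.49 ± 0.09, 0.60 ± 0.10 and 0.45 ± 0.12, with adjusted p of 0.0001, 0.000984 and 0.0069 (edgeR), against a range over all settings of 2.3e-06 to 0.447, 1.88e-07 to 0.282 and 3.06e-06 to 0.525. With dsRNA, DESeq2 (adjusted p = 0.0469) and the fit with no filter on low counts (0.0243) also passed.

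MIAT gave the widest intervals, since its replicates differed most. From the levels given above, each pellet was higher than the input of the same number, and the log2 fold changes were 0.45 ± 0.59 for mock, 0.59 ± 0.59 for dsRNA and 0.45 ± 0.58 for silvestrol, with adjusted p of 0.588, 0.453 and 0.566. With the block they were 0.46 ± 0.08, 0.58 ± 0.09 and 0.46 ± 0.10, with adjusted p of 5.5e-05, 0.00071 and 0.0017 (edgeR). Without replicate 1 in either group, a setting chosen after the data were seen, the values were 0.44 ± 0.10, 0.61 ± 0.08 and 0.45 ± 0.08, with adjusted p of 0.00117, 1.35e-05 and 5.75e-06. Over all settings the adjusted p ran up to 0.966, 0.813 and 0.963.

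KCNQ1OT1, the imprinted antisense RNA, was at 4.22, 4.29 and 3.57 CPM in input. It was at 6.06, 5.22 and 4.22 CPM in mock pellets, 7.10, 5.997 and 4.33 CPM with dsRNA and 5.70, 5.62 and 4.65 CPM with silvestrol. The dsRNA and silvestrol pellets lay above all input libraries and the mock pellets overlapped them. Its log2 fold changes of 0.40 ± 0.19, 0.57 ± 0.22 and 0.43 ± 0.17 had adjusted p of 0.146, 0.0659 and 0.0826, and with the block 0.0224, 0.00823 and 0.0153 (edgeR). An offset for GC content without the block also made all 3 pass, at 0.62, 0.85 and 0.69 with adjusted p of 0.0392, 0.0221 and 0.0179. Over all settings its adjusted p ran from 0.00102 to 0.402, from 0.000589 to 0.199 and from 0.00112 to 0.313.

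MALAT1 was the steadiest RNA of the input, at 228, 209 and 215 CPM. Mock pellets held 227, 312 and 302 CPM, dsRNA pellets 219, 304 and 262 CPM and silvestrol pellets 197, 323 and 237 CPM. Replicate 1 of each pellet was within or below the input range, and replicates 2 and 3 were above it. The log2 fold changes were 0.40 ± 0.15, 0.31 ± 0.15 and 0.25 ± 0.19, with adjusted p of 0.0675, 0.127 and 0.328, and the block changed the call for mock alone, to 0.39 ± 0.10 with adjusted p = 0.00188 (edgeR; 3e-06 to 0.223 over all settings). Without the block, mock also passed with DESeq2 (adjusted p = 0.0473), by library size only (0.0471) and with an offset for GC (0.62, adjusted p = 0.0193), and dsRNA with the offset for GC (0.57, adjusted p = 0.0112; 2.74e-05 to 0.408 over all settings). Without replicate 1 in both groups the values were 0.57 ± 0.06, 0.46 ± 0.07 and 0.43 ± 0.08, with adjusted p of 3e-06, 2.74e-05 and 1.93e-05.

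TUG1 was the closest to input in these pellets without an offset for GC, and PVT1 was with it. It was at 114, 143 and 126 CPM in input, 132, 137 and 148 CPM in mock, 134, 139 and 142 CPM with dsRNA and 136, 129 and 142 CPM with silvestrol, and the groups overlapped. The log2 fold change was 0.16 ± 0.12 for mock (95% interval −0.13 to 0.44), 0.16 ± 0.12 for dsRNA (−0.13 to 0.44) and 0.12 ± 0.12 for silvestrol (−0.17 to 0.40), with adjusted p of 0.352, 0.345 and 0.48. These intervals leave room for changes of up to 0.44 on the log2 scale. An offset for GC content moved the values to 0.38, 0.43 and 0.38, with adjusted p of 0.0817, 0.0423 and 0.0734, so that dsRNA passed. The block with this offset gave 0.39, 0.45 and 0.39 and all 3 passed, with adjusted p of 0.00043, 0.00152 and 0.0097, the lowest over all settings, which reached 0.696, 0.692 and 0.862. PVT1 was at −0.20, −0.15 and −0.19 with the offset alone.

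PVT1 was at 51.0, 59.0 and 57.7 CPM in input, and at 41.0, 51.1 and 44.8 CPM in mock, 38.4, 51.3 and 51.5 CPM with dsRNA and 39.1, 51.3 and 49.0 CPM with silvestrol. Pellets were lower than the input of the same number in all 9 cases, although the groups overlapped by a small margin. The log2 fold changes of −0.26 ± 0.12, −0.21 ± 0.15 and −0.24 ± 0.14 had adjusted p of 0.139, 0.287 and 0.206. With the block they fell by 0.26 ± 0.09 in mock (adjusted p = 0.0111) and by 0.24 ± 0.10 with silvestrol (adjusted p = 0.0472) and were at −0.22 ± 0.10 with dsRNA (adjusted p = 0.0958, edgeR), and over all settings the adjusted p ran up to 0.295, 0.394 and 0.567.

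Counted together, 1 of the 8 lncRNAs was called higher and 0 lower in mock pellets, where 17.6% of all genes tested were called higher and 15.8% lower. With dsRNA, 1 was called higher and 1 lower, beside 21.1% and 19.6% of all genes, and with silvestrol 1 and 1, beside 19.4% and 18.1%. With the block the counts rose to 5 higher and 2 lower in mock (32.5% and 30.1% of all genes), to 4 and 1 with dsRNA (31.0% and 29.1%), and to 4 and 2 with silvestrol (30.8% and 28.7%). The shares over all genes rose with the pairing as well. Pellet and input libraries did not overlap for NORAD and DANCR in any of the 3 comparisons, nor for KCNQ1OT1 with dsRNA and with silvestrol, and the same absence of overlap held for 50.1%, 55.3% and 53.5% of all genes in mock, dsRNA and silvestrol. The median log2 fold change of the 8 RNAs was 0.40 in mock, 0.44 with dsRNA and 0.34 with silvestrol, beside a median of 0.00 over all genes in each.

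**Figure D2:**
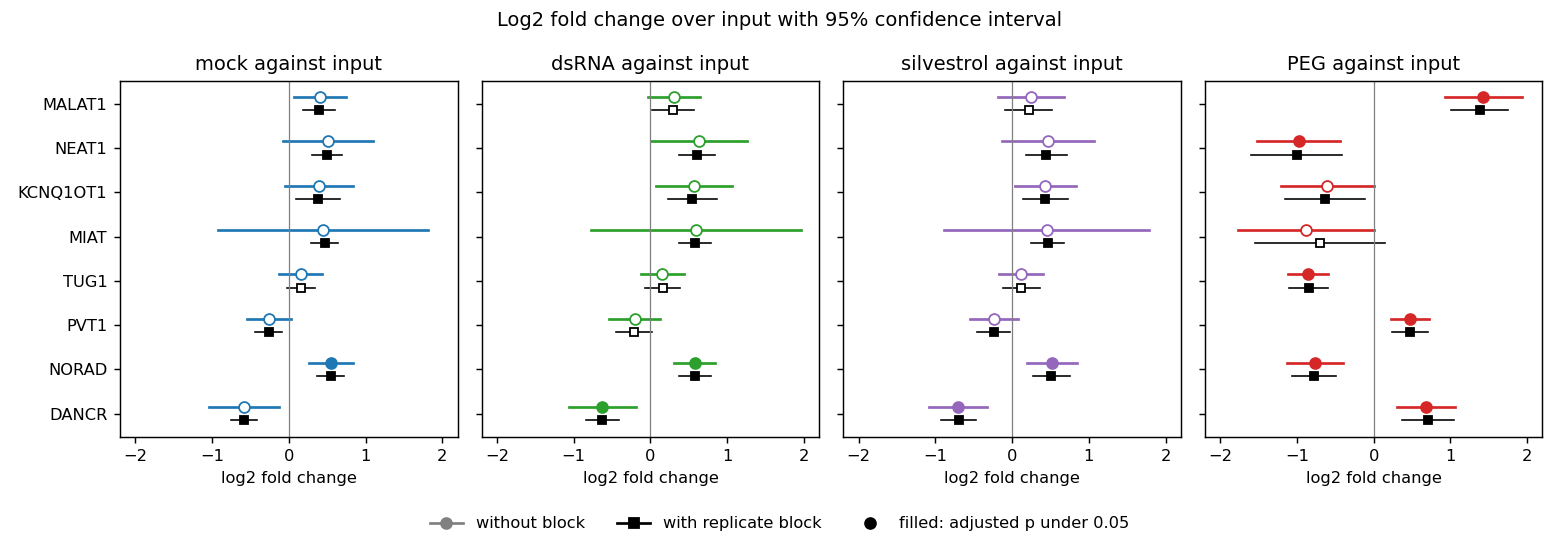
Log2 fold change over input (horizontal axis) with its 95% confidence interval for the 8 lncRNAs in mock, dsRNA, silvestrol and PEG condensates, fitted without the replicate block (coloured circles) and with it (black squares). Filled symbols have an adjusted p under 0.05. The interval of MIAT in mock runs from −0.92 to 1.82 without the block and from 0.29 to 0.64 with it, and MALAT1, PVT1 and DANCR lie to the right of 0 in PEG.

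The next comparison set dsRNA and silvestrol condensates against mock condensates, to ask whether inhibition of translation changed what the untreated pellet already held. None of the 8 RNAs passed the test in either comparison, with edgeR, DESeq2 or the replicate block, and 0 of 8 had an unadjusted p under 0.05 (edgeR). Over all genes 0% were called in both comparisons, with 374 and 35 genes at an unadjusted p under 0.05. With the block 2.81% of all genes were called for dsRNA and 0.0120% for silvestrol, and DESeq2 called 65 genes lower with dsRNA.

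The size of change that these libraries could have missed differed between RNAs. For NORAD the 95% interval of the log2 difference from mock was −0.24 to 0.28 with dsRNA and −0.35 to 0.30 with silvestrol, and for TUG1 −0.22 to 0.21 and −0.25 to 0.18. For MIAT it reached from −1.30 to 1.59 and from −1.41 to 1.42, and with the block from −0.02 to 0.24 and from −0.13 to 0.13. MALAT1 was at −0.15 ± 0.22 with silvestrol, and at −0.17 ± 0.07 with the block (interval −0.32 to −0.02, adjusted p = 0.749, with 0.749 to 1.00 over all settings). KCNQ1OT1 had the highest value with dsRNA, 0.17 ± 0.22 (interval −0.36 to 0.69).

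PEG condensates were compared with input and with mock, since PEG was added to condense the extract by crowding. MALAT1, PVT1 and DANCR were higher in PEG pellets than in either, and NEAT1, TUG1 and NORAD were lower than in either. KCNQ1OT1 and MIAT were lower than in mock, and against input they did not pass. Each class of the list was split, as a nuclear RNA (MALAT1) and a cytoplasmic RNA (DANCR) rose while a nuclear RNA (NEAT1) and the other cytoplasmic RNA (NORAD) fell. Both comparisons contain the same 3 PEG libraries.

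MALAT1 was at 769, 411 and 524 CPM in PEG pellets, each above all 12 other libraries, whose highest was 323 CPM. When scaled by library size only, PEG replicate 2 (326.5) lay below replicate 2 of mock (340.3), dsRNA (331.5) and silvestrol (350.3). The log2 fold change was 1.43 ± 0.22 over input (2.70-fold, adjusted p = 0.00104), which placed it at the percentile of 97.1 of all genes. Against mock it was 1.10 ± 0.22 (2.14-fold, adjusted p = 0.00173, edgeR), at the percentile of 84.7.

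DANCR, the shortest of the 8 RNAs by exon length (2285 nt), was at 233, 255 and 225 CPM in PEG pellets. All 3 lay above the input libraries and the mock libraries given earlier, and by library size only the lowest PEG library (177) fell just under the highest input library (179). Over input the log2 fold change was 0.69 ± 0.17 (1.61-fold, adjusted p = 0.00846) and over mock 1.33 ± 0.17 (2.52-fold, adjusted p = 8.65e-05, edgeR). It thus stood on opposite sides of the input in mock (−0.58, not passing) and in PEG pellets.

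PVT1 was at 73.3, 79.6 and 72.8 CPM in PEG pellets, above all 12 other libraries, while by library size only they ran from 57.3 to 63.6 and overlapped the input (up to 60.7). The log2 fold change was 0.48 ± 0.11 over input (1.39-fold, adjusted p = 0.00634) and 0.80 ± 0.12 over mock (1.74-fold, adjusted p = 0.000251, edgeR).

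NORAD was at 254, 173 and 209 CPM in PEG pellets, below all 12 other libraries. It fell by 0.76 ± 0.16 on the log2 scale from input (1.70-fold lower, adjusted p = 0.00429) and by 1.25 ± 0.17 from mock (2.38-fold lower, adjusted p = 0.000126, edgeR). Leaving out any of the libraries kept both calls.

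NEAT1 was at 474, 262 and 336 CPM in PEG pellets, below every other library, the lowest of which was 536 CPM. It fell by 0.98 ± 0.24 on the log2 scale from input (1.97-fold lower, adjusted p = 0.00861) and by 1.42 ± 0.25 from mock (2.68-fold lower, adjusted p = 0.000755, edgeR). Replicate 1 was the highest PEG library and the lowest library of each other group.

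TUG1 was at 68.7, 67.6 and 68.9 CPM in PEG pellets, and their coefficient of variation of 0.994% was the lowest of any RNA and group here. It fell by 0.85 ± 0.11 from input (1.80-fold lower, adjusted p = 0.000626) and by 0.95 ± 0.11 from mock (1.93-fold lower, adjusted p = 4.77e-05, edgeR), on the log2 scale. No PEG library overlapped another group.

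KCNQ1OT1 was at 3.68, 2.18 and 1.98 CPM in PEG pellets, from 40 to 49 counts per library. It fell by 0.94 ± 0.27 from mock on the log2 scale (1.92-fold lower, adjusted p = 0.0126) and was at −0.60 ± 0.27 against input, where replicate 1 overlapped (adjusted p = 0.088). The block brought the input comparison to −0.63 ± 0.22 and adjusted p = 0.0436 (edgeR; 0.00239 to 0.226 over all settings). The call against mock was lost without PEG replicate 2 (adjusted p = 0.0684) or replicate 3 (0.0702).

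MIAT, at the 71.2 to 78.4 CPM given above, fell by 1.27 ± 0.37 from mock on the log2 scale (2.41-fold lower, adjusted p = 0.0126). Against input it was at −0.88 ± 0.39 (adjusted p = 0.088, edgeR). In both comparisons replicates 2 and 3 of PEG were far below those of mock and input, while replicate 1 of PEG was above replicate 1 of mock and of input. The call against mock was lost with all 5 groups in 1 fit (−1.36, adjusted p = 0.0727) and without PEG replicate 2 (adjusted p = 0.0574) or replicate 3 (0.0609), in a range of 6.4e-17 to 0.0727 over all settings. Leaving out replicate 1 in both groups gave −1.69 ± 0.10 (adjusted p = 4.73e-12) against mock and −1.32 ± 0.08 (adjusted p = 3.57e-08) against input.

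Against input, 3 of the 8 RNAs were called higher and 3 lower in PEG pellets, where 25.5% of all genes were called higher and 25.9% lower, and against mock 3 were higher and 5 lower, beside 31.3% and 32.2% of all genes. The PEG libraries did not overlap the input in 6 of the 8 RNAs and the mock libraries in 7 of them, which held for 61.7% and 69.6% of all genes. Medians over the 8 were −0.68 and −0.94 on the log2 scale, beside −0.01 and −0.03 over all genes. Scaling by library size in place of TMM moved the median of all genes to −0.36 and −0.50. On that scale PVT1 (0.13, adjusted p = 0.409; 0.000168 to 0.409 over all settings) and DANCR (0.35, adjusted p = 0.0547; 5.94e-07 to 0.0547) did not pass against input, while KCNQ1OT1 (−0.94, adjusted p = 0.0227) and MIAT (−1.26, adjusted p = 0.0333) did, and MALAT1 over mock was at 0.64 (adjusted p = 0.0495). No member changed direction in the PEG comparisons under either scaling.

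**Figure D3:**
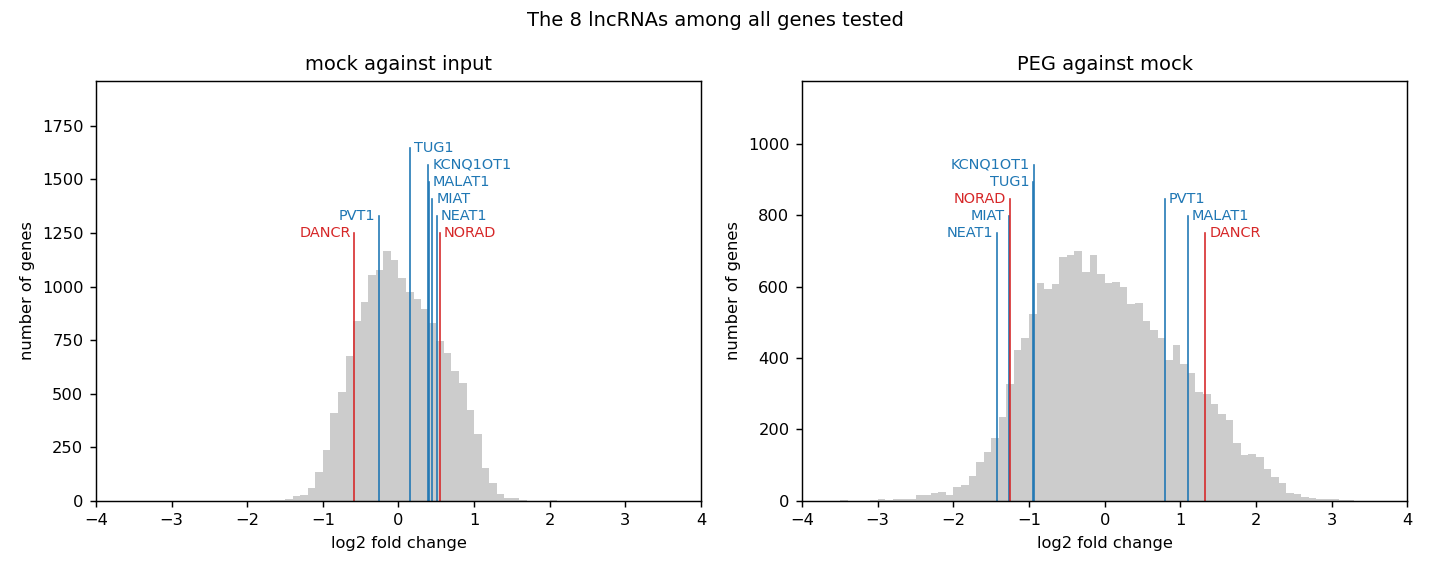
Number of genes (vertical axis) by log2 fold change (horizontal axis) over all 16612 genes tested, for mock against input and for PEG against mock, with vertical lines at the values of the nuclear-retained (blue) and cytoplasmic (red) lncRNAs. In PEG against mock the 8 RNAs leave the middle empty, with 5 at −0.94 or below and 3 at 0.80 or above.

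Ratios of counts within a library do not depend on scaling between libraries, and they set the RNAs of each class against each other. There were 0.585, 0.596 and 0.576 MALAT1 counts per NORAD count in the 3 input libraries. The ratio was 0.394 to 0.659 in mock, 0.395 to 0.587 with dsRNA and 0.323 to 0.692 with silvestrol, all of which overlapped input. In PEG pellets it was 3.02, 2.38 and 2.51, above every other library.

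DANCR counts per NORAD count separated 3 levels. They were 0.476, 0.401 and 0.349 in input, 0.156 to 0.214 in all 9 mock, dsRNA and silvestrol pellets, and 0.919, 1.48 and 1.08 in PEG pellets, with no overlap between these ranges. The cytoplasmic pair thus moved apart in opposite directions. With 3 libraries against 3, an exact permutation test could not give a two-sided p under 0.10, and none was run.

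NEAT1 per NORAD, in contrast, overlapped throughout. It was 1.38 to 2.30 in input, 1.24 to 2.73 in mock, 1.27 to 2.62 with dsRNA, 1.12 to 2.69 with silvestrol and 1.52 to 1.87 in PEG. MALAT1 per NEAT1, the pair with the shared 3′ end letters, was 0.212 to 0.425 in the 12 other libraries and 1.56 to 1.62 in PEG pellets. PVT1 per TUG1 went from 0.414 to 0.458 in input down to 0.287 to 0.398 in the 9 other pellets and up to 1.06 to 1.18 in PEG.

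**Figure D4:**
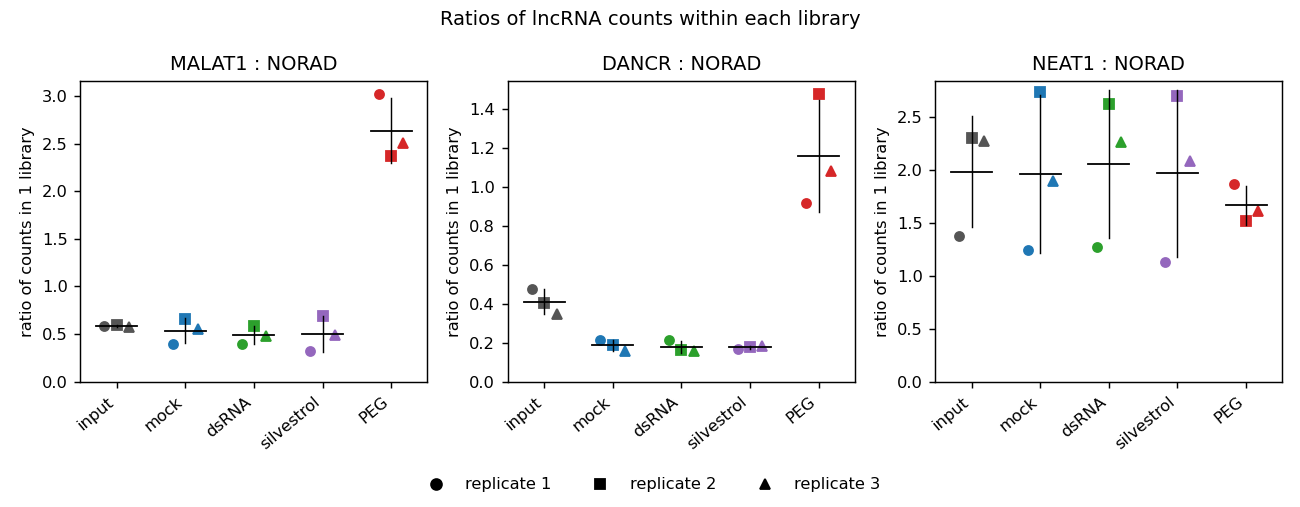
Ratio of counts of MALAT1, DANCR and NEAT1 to those of NORAD in the same library (vertical axis, no unit) for input and the 4 condensate groups. Symbols are replicates, the horizontal line is the mean and the vertical line ± 1 SD of 3 libraries. MALAT1 per NORAD is at most 0.692 outside PEG and at least 2.38 in it, DANCR per NORAD takes 3 separate levels, and NEAT1 per NORAD overlaps in all groups.

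Exon length ran along with these changes over all genes, and the 8 RNAs span its range. In PEG against mock the median log2 fold change was 0.76 for the 3991 genes with under 2.5 kb of exon, the class of DANCR, and −0.76 for the 118 genes of at least 20 kb, the class of NEAT1 and KCNQ1OT1. DANCR (1.33), NEAT1 (−1.42) and KCNQ1OT1 (−0.94) were on the side of their class. So was MIAT (11505 nt) at −1.27, beside a median of −0.70 for genes of 10 to 20 kb. By exon length MALAT1 and PVT1 were not. Genes of 7.5 to 10 kb had a median of −0.55, with 12.8% called higher and 56.2% lower, and MALAT1 (8755 nt) was at 1.10. Genes of 5 to 7.5 kb had a median of −0.32, with 19.8% called higher and 43.4% lower, and there PVT1 (5493 nt) was at 0.80 beside NORAD (5339 nt) at −1.25 and TUG1 (6793 nt) at −0.95. The exon length of PVT1 sums many alternative exons, and its longest single transcript in GENCODE release 29 has 1699 nt. By that length it would fall under 2.5 kb.

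In mock against input the same classes went the other way, from a median of −0.16 under 2.5 kb to 0.30 at 20 kb and above. DANCR (−0.58) again lay on the side of its class and NORAD (0.55) above the median of 0.05 of genes of 5 to 7.5 kb, of which 20.4% were called higher. MALAT1, NORAD and TUG1 are also poor in G and C, with 39.6%, 41.6% and 41.8% GC where the median gene had 49.6%. They lay at the percentiles of 8.68, 16.4 and 17.5, and KCNQ1OT1 followed with 43.7% GC at the percentile of 26.5. An offset for GC gave NORAD over input in mock 0.78 (adjusted p = 0.00547) and MALAT1 0.62 (adjusted p = 0.0193), and moved DANCR with dsRNA to −0.51 (adjusted p = 0.0641; 2.66e-07 to 0.11 over all settings). What part length or GC has in the values of the 8 RNAs was not tested.

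Other lncRNAs of known location were counted for comparison. Of 9 further nuclear lncRNAs, 7 passed the filter. In mock pellets 1 was called higher and 1 lower than input, the same counts as with dsRNA and silvestrol, and with the block 4 were higher and 2 lower in mock and 3 higher and 2 lower with dsRNA and with silvestrol. Without the block, 0 were higher and 2 lower than input in PEG pellets, and 1 was higher and 2 lower than mock. SNHG14, the long host transcript of the imprinted snoRNA cluster, was 0.63 above input in mock (adjusted p = 0.00616) and fell by 1.36 from mock in PEG (adjusted p = 2.49e-05). JPX, an activator of X inactivation, fell by 0.72 from input in mock (adjusted p = 0.00742) and was 0.88 higher in PEG than in mock (adjusted p = 0.000172). HOTAIR was at 0.26 (adjusted p = 0.206) and −0.05 (adjusted p = 0.743) in those comparisons, and passed over input with the block in mock (adjusted p = 0.0162), dsRNA (0.0299) and silvestrol (0.0379). FTX was at 0.05 in mock over input (adjusted p = 0.82) and at −0.85 in PEG over mock (adjusted p = 0.045, edgeR).

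All 5 further cytoplasmic lncRNAs passed the filter. In mock pellets 0 were called higher and 2 lower than input, with dsRNA and with silvestrol 0 higher and 3 lower each, and with the block 0 higher and 4 lower in each of the 3. ZFAS1 passed there with the block and not without it (adjusted p of 0.000533, 0.00491 and 0.00118), as did OIP5-AS1 in mock (0.003). Against mock, 0 were called with dsRNA or with silvestrol without the block. With it 2 were lower with dsRNA, OIP5-AS1 (−0.23, adjusted p = 0.0291) and CYTOR (−0.23, adjusted p = 0.0486, edgeR), where 2.81% of all genes were called. In PEG pellets 3 were higher and 1 lower than input and 4 higher and 1 lower than mock. GAS5 and ZFAS1, both short snoRNA hosts like DANCR, were 1.89 (adjusted p = 0.000156) and 2.204 (adjusted p = 1.59e-05) above mock in PEG on the log2 scale, and CYTOR was 1.55 above it (adjusted p = 7.66e-06). OIP5-AS1, a cytoplasmic RNA that binds the protein HuR, fell by 0.51 (adjusted p = 0.0041, edgeR). These counts are a description of the lists beside the shares over all genes given above.

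The genes most like each member over the 15 libraries, by Pearson's r of log2 CPM, were found among all genes tested and are given as a description, since libraries of 1 group share a treatment, libraries of 1 replicate number deviated together, and depth differed between groups. NORAD was closest to SPTBN1 (r = 0.994), SMC1A (0.992) and SETD2 (0.992), all with long mRNAs. DANCR was closest to TMSB4X (0.995), which encodes a small actin-binding peptide, SEC13 (0.993) and NME1 (0.993), and PVT1 to ETHE1 (0.987), the ribosomal protein gene RPL10A (0.984) and COSMOC (0.982). TUG1 was closest to SERTAD2 (0.989), NEAT1 to ZNF37BP (0.989), MIAT to LONRF2 (0.986) and KCNQ1OT1 to ANKRD33B (0.954). MALAT1 had the lowest top value of the 8, with SPATA1 at 0.952 and GRAMD4P2 at 0.914.

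The genes lie at chr11:65497762-65506516 (MALAT1, plus strand), chr11:65422774-65445540 (NEAT1, plus), chr11:2608328-2699994 (KCNQ1OT1, minus), chr22:26646428-26676475 (MIAT, plus), chr22:30970677-30979395 (TUG1, plus), chr20:36045622-36050960 (NORAD, minus) and chr4:52712404-52720351 (DANCR, plus) on GRCh38, as the files give them. PVT1 lies on chromosome 8. Annotated exons of other genes overlap some of them, and whether reads were counted by strand is not given in the sources used here. On MALAT1, exons of 2 antisense genes cover 18.1% and 4.52% of its exon bases and had 0 counts. On MIAT, antisense exons cover 18.7% and had at most 18 counts, and MIATNB on the same strand shares 1.92% and had 72 to 238 counts, the most of any overlapping gene. On TUG1, antisense exons of 2 genes cover 8.04% and 3.89% and had 0 counts. On DANCR they cover 11.9% and had 3 to 42 counts, and KCNQ1 shares 0.132% of the exon of KCNQ1OT1 with 9 to 131 counts. The other overlapping genes had at most 4 counts in a library. NORAD overlaps no other annotated exon.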

How the data were processed

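The data are poly(A)-selected RNA-seq libraries of U2OS cytosolic extract and of pellets of in vitro reactions, 15 in total. What the authors deposited are unnormalised counts of reads, 1 value per gene and library. The submitters' processing notes name Trimmomatic 0.36, STAR 2.5.2b, featureCounts and Subread 1.5.2 and the build GRCh38. The annotation release and the settings for strand, overlapping genes and multimapped reads are not given in the sources used here, so shared or antisense reads could not be told apart. The labels give the cells as wild type, whereas the paper writes of YFP-G3BP1 condensates.

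Genes were kept where each condition had 10 counts or more in 2 or 3 replicates (16612 of 57500). Counts were scaled by TMM and put to the quasi-likelihood F test of edgeR 4.0.16 (R 4.3.3) over the whole table, on the 6 libraries of each of 7 comparisons, with Benjamini-Hochberg adjustment over all genes tested and an adjusted p under 0.05 as the threshold. CPM values use TMM library sizes and correlations log2 CPM with a prior count of 2. Alternatives were DESeq2 1.42.0 (the test of the methods), edgeR scaled by DESeq2 size factors or by library size alone, other count filters, all 5 groups in 1 fit, a replicate block, an offset for GC content (span 0.3, known for 16529 genes), the block with the offset, and each library left out in turn. Leaving out replicate 1 in both groups was added after the data were seen. The edgeR fit without the block was tested on counts simulated for mock against input. These had no replicate effect and a smaller spread between replicates than the data. The other fits were not tested in this way. Python 3.11.15 with matplotlib 3.10.9 made the figures.

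Total counts of 15341973 to 46939993 gave KCNQ1OT1 40 to 288 counts per library, the fewest of the members, and PVT1 976 to 2851. The labels number the replicates, and the deviations of same-numbered libraries from their group means were correlated at 0.131 to 0.861 in all 30 pairs, against −0.746 to 0.583 for 60 pairs of different numbers. Same-numbered pairs with a PEG library were the weakest, at 0.131 to 0.358, beside 0.495 to 0.861 for the other same-numbered pairs. The pairing thus has little hold on the PEG comparisons. All negative values involved replicate 1, whereas replicate 2 of a group and replicate 3 of another correlated at 0.109 to 0.583. The correlations thus set replicate 1 apart and hardly separate replicates 2 and 3. The numbers were taken as pairs, and whether replicates 2 and 3 are true pairs cannot be told from these values. The labels call the replicates biological without naming separate cultures, so p-values measure the spread between these libraries. The 8 lncRNAs and the lists of other lncRNAs were chosen with earlier results of these data known. Named genes were the members, up to 4 tested genes of each list of other lncRNAs by mean CPM, all cell type markers, genes whose exons overlap a member, and up to 3 genes most correlated with a member. Symbols were found for 16456 of the genes tested. Sequences were read from GENCODE release 29 transcripts.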

Additional observations from a re-analysis of the deposited data

How the results depend on the processing

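Depth limited KCNQ1OT1 (40 to 49 counts in a PEG library), and 3 libraries per group whose replicate 1 stood apart limited MIAT and NEAT1. Of the member log2 fold changes recomputed under alternatives that keep all libraries, 440 kept direction and side of the threshold, 49 newly passed it, 4 no longer passed and 11 changed sign, all 11 in the comparisons of dsRNA or silvestrol with mock, where no member passed.

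Without pairing, members called higher and lower numbered 1 and 0 in mock, 1 and 1 with dsRNA and 1 and 1 with silvestrol over input, and 3 and 3 in PEG. The replicate block gave 5 and 2 in mock, 4 higher with dsRNA, and 4 and 2 with silvestrol, and for all genes 5404 higher and 5003 lower in mock (from 2916 and 2625), 5109 and 4764 with silvestrol (from 3225 and 3007), 25 and 441 in dsRNA against mock (from 0 and 0) and 2 higher in silvestrol against mock (from 0). It changed no other call beyond those given with the members. The block with the GC offset gave 6 members higher and 2 lower in mock, 6 higher with dsRNA and 6 higher with silvestrol, and for all genes 5521 and 4587 in mock, 5563 higher with dsRNA (from 3507), 5264 higher with silvestrol, 105 and 434 in dsRNA against mock and 4 higher in silvestrol against mock. The GC offset alone gave 3 members higher in mock, 4 higher and 0 lower with dsRNA and 2 higher with silvestrol. Over all genes it went the other way, with fewer called higher and fewer called lower in mock and with dsRNA than without the offset. The shares of all genes were thus under 17.6% higher and 15.8% lower in mock. With dsRNA they were under 21.1% and 19.6%. Of all genes called, 52.9% were higher in mock with this offset (52.6% without), 52.5% with dsRNA (51.8%) and 52.1% with silvestrol (51.7%). DESeq2 gave 2 members higher and 1 lower in mock, 2 higher with dsRNA, and 65 genes lower in dsRNA against mock. DESeq2 also called more of all genes than edgeR did, both higher and lower, in mock and with dsRNA over input. The edgeR shares were 17.6% higher and 15.8% lower in mock, and 21.1% and 19.6% with dsRNA. Library size only gave 2 higher in mock, and in PEG against input 1 higher and 5 lower, with 2337 genes higher and 6890 lower (from 4228 and 4307), and 3118 and 8272 in PEG against mock (from 5207 and 5350). Of all genes called, 25.3% were then higher in PEG against input (49.5% with TMM), 27.4% in PEG against mock (49.3%) and 58.5% in mock against input (52.6%). No filter on low counts gave 1 member lower in mock, 2 higher with dsRNA and 5 lower in PEG against input, and 23 genes lower in dsRNA against mock. Over all genes, fewer were then called higher and more lower in mock, and more both ways with dsRNA, than with the filter. All 5 groups in 1 fit gave 1 member lower in mock, and 15 genes lower in dsRNA against mock. More of all genes were called higher and lower in mock and with dsRNA over input in that fit than in separate fits. The cause of these differences was not tested.

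With libraries left out (each in turn, and replicate 1 in both groups, which was chosen after the data were seen), members called higher and lower ranged from 0 to 4 and 0 to 2 in mock, 1 to 5 and 0 to 2 with dsRNA, 0 to 5 and 0 to 2 with silvestrol, 3 to 3 and 3 to 5 in PEG against input, and 3 to 3 and 3 to 5 in PEG against mock. Genes called higher and lower ranged from 1335 to 5296 and 1017 to 5086 in mock, 2360 to 5575 and 1960 to 5512 with dsRNA, 2148 to 5462 and 1711 to 5301 with silvestrol, 2944 to 5790 and 3475 to 5918 in PEG against input, 0 to 6 and 0 to 192 in dsRNA against mock, 0 to 0 and 0 to 1 in silvestrol against mock, and 4662 to 6182 and 4194 to 6275 in PEG against mock. Every upper end of the gene counts above 0 came without replicate 1 in both groups. Without replicate 1 of the pellet alone, 3 members were higher and 1 lower in mock, and 3 were higher with dsRNA. The lower ends of the gene counts in mock and silvestrol came without replicate 2 or 3 of input or pellet.

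Signs changed as follows. TUG1 in dsRNA against mock (−0.01) was at 0.00 with DESeq2 (0.000989) and its size factors (0.000904), at 0.05 with the GC offset (0.0483) and at 0.0502 with the block added. In silvestrol against mock, MIAT (0.01) was at −0.00469 by library size only, −0.00726 with the GC offset and −0.012 with the block added, TUG1 (−0.04) at 0.00325 and 0.00457 with the GC offset without and with the block, and NORAD (−0.03) at 0.0141 and 0.00745. With a library left out, log2 differences from mock with dsRNA ranged from −0.24 to 0.0145 (MALAT1), −0.085 to 0.36 (NEAT1), −0.26 to 0.55 (MIAT), −0.0474 to 0.0373 (TUG1), −0.0324 to 0.17 (PVT1), −0.0535 to 0.0773 (NORAD) and −0.22 to 0.13 (DANCR), and with silvestrol from −0.38 to 0.00188 (MALAT1), −0.26 to 0.18 (NEAT1), −0.086 to 0.16 (KCNQ1OT1), −0.39 to 0.40 (MIAT), −0.075 to 0.00972 (TUG1), −0.0584 to 0.14 (PVT1), −0.15 to 0.0377 (NORAD) and −0.22 to 0.0605 (DANCR).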
